A study of Mus musculus with 56 samples.

Results

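The 40 collagen genes described here were all the genes of the heart table whose symbol has the form Col, a number, the letter a and a number. They were 40 of the 22864 genes listed. The RNA came from hearts of adult females of the inbred mouse strain C57BL/6J at 9 weeks of age. Lights were on for 12 h and off for 12 h, and for 7 days food was given either during the day (daytime-restricted feeding, DRF) or during the night (nighttime-restricted feeding, NRF, taken as the reference because it matches the usual feeding time of mice). The data comprised 56 polyA RNA-seq libraries: 4 replicates for each of 2 regimens at 7 times of day, every 4 h between ZT0 and ZT24, where zeitgeber time (ZT) counts hours from lights on. The labels name the tissue as heart without giving the chambers taken, no allele or drug was involved, and the labels name no separate batch.

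Collagens are the main structural proteins of the extracellular matrix. Each collagen molecule is a triple helix of alpha chains, and each gene encodes 1 chain. Fibrillar collagens form the rope-like fibres that carry tension, with collagens I and III as the bulk of them in the heart and collagen V regulating fibre assembly. Collagen IV forms the sheet of the basement membrane around muscle cells and vessels, and collagen VI forms beaded filaments close to it. In the heart, fibroblasts make most fibrillar collagen, whereas endothelial cells, mural cells and others contribute to the basement membrane.

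Levels are given as TPM (reads per base of exon, scaled to 1 fixed total per library), recomputed from whole reads recovered from the deposited values. Each library held between 29323816 and 53005468 recovered reads, with a median of 37389692. The sources used here leave unsaid whether single reads or pairs were counted, and "reads" stands for either. A gene was tested when its mean was at least 1 TPM, which 13893 genes reached. Changes between groups are differences of log2(TPM + 1), which understates the change of genes near 1 TPM. Tests were made with limma across all 13893 genes, p values were adjusted by the Benjamini-Hochberg method over all of them, and 0.05 was the threshold. The labels do not say how many mice gave each library, so p values measure the spread between these samples.

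Of the 40 collagen genes, 27 were tested. The basement membrane chains Col4a1 and Col4a2 were the most abundant, at 24.3% and 18.0% of all collagen TPM, followed by Col3a1 at 10.2%, Col6a1 at 8.52%, Col15a1 at 7.19% and Col1a1 at 6.11%. These 6 genes together held 74.4% of collagen TPM. The 13 genes that were not tested had means from 0.037 TPM (Col24a1) to 0.878 TPM (Col12a1). Among them were the cartilage chains Col2a1, Col9a1, Col9a2, Col9a3 and Col11a1, the skin and anchoring-fibril chains Col17a1 and Col7a1, and Col20a1, Col22a1, Col25a1 and Col26a1. They were tested in the fit without a filter on low values, where Col17a1, Col25a1 and Col26a1 were called rhythmic under NRF, and Col25a1 and Col9a2 had a different rhythm (adjusted p = 0.022 and 0.045). Their amplitudes of 0.14 or less on the log2(TPM + 1) scale are compressed at such levels, and for example Col2a1 averaged 6.54 reads per library. Test counts given elsewhere are of the 27 genes unless stated.

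The summed collagen level followed the time of day and the regimen. In the 28 NRF libraries the sum of the 40 genes had a lowest value of 576 TPM, a median of 951 TPM and a highest value of 1766 TPM. In the 28 DRF libraries the lowest was 478 TPM, the median 726 TPM and the highest 1187 TPM. The ranges over the day overlapped widely, and within single times the regimens overlapped at each time except ZT0, where each DRF library was below each NRF library. By time of day, the mean under NRF was highest at ZT4 (1283 ± 358 TPM, SD, n = 4) and lowest at ZT16 (668 ± 92.2). Under DRF it was also highest at ZT4 (1028 ± 192) and lowest at ZT16 (535 ± 38.3). The DRF mean was below the NRF mean at each of the 7 times. The libraries with the highest sums were replicate 4 of NRF at ZT4 (1766 TPM) and replicate 4 of NRF at ZT8 (1499 TPM).

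Col5a1 and Col5a2 encode the chains of the common collagen V molecule, and Col5a3 encodes a chain found in a rarer form. Col5a3 lies on chromosome 9 (GRCm38, 20770050 to 20815067, minus strand) and Col5a1 on chromosome 2 (27886425 to 28039514, plus strand). The 250 bases before the annotated RNA start of each are printed to show the control regions of 2 rhythmic chains of 1 family with different daily swings, from RefSeq on GRCm38.p6, 5′ to 3′ on the gene's strand, with each GGGCGG (a GC box, found on either strand) in capitals.
Col5a3, chr9:20815068-20815317, minus strand: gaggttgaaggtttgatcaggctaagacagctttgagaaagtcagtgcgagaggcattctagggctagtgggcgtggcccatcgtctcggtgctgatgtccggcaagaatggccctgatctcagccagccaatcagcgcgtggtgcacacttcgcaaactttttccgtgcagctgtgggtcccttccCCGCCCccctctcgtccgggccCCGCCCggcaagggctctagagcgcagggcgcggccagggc
Col5a1, chr2:27886175-27886424, plus strand: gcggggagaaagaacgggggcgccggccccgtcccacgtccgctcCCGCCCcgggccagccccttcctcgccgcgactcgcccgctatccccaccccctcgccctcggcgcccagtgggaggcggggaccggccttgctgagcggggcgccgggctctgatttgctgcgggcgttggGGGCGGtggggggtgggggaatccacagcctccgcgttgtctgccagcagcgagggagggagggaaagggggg
Both windows held 2 GC boxes. Of the 31 collagen genes with a RefSeq window, 19 held at least 1 GC box (61.3%, against 32.7% of all 32851 windows). The collagen counts are of genes and the shares of all are of windows, so the units differ. The E-box CACGTG, bound by the clock proteins CLOCK and BMAL1, was found on either strand in 0 of the 31 collagen genes and in 6.02% of all windows. The D-box forms TTATGTAA and TTACGTAA were also found in 0 collagen windows, and in 0.819% and 0.113% of all windows. Both forms of the ROR element searched, the binding site of nuclear receptors of the clock, were in 0 collagen windows and in 0.177% and 0.174% of all windows. These are matches of letters in 250 bases and say nothing of binding elsewhere.

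Col5a3 had the highest amplitude on the log2(TPM + 1) scale of the 27 tested collagen genes under both regimens. Under NRF, the replicates of Col5a3 were at 21.5, 15.9, 17.9 and 19.9 TPM at ZT0, at 16.3, 22.2, 23.6 and 32.5 TPM at ZT4 and at 19.97, 11.4, 13.1 and 18.8 TPM at ZT8. They were at 7.75, 7.60, 6.50 and 5.51 TPM at ZT12, at 4.33, 4.48, 5.37 and 5.25 TPM at ZT16, at 7.43, 8.51, 5.38 and 5.55 TPM at ZT20 and at 19.2, 14.7, 18.4 and 14.5 TPM at ZT24. Each NRF library from ZT24, ZT0, ZT4 and ZT8 was thus above each NRF library from ZT12, ZT16 and ZT20.

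Under DRF, the replicates of Col5a3 were at 15.9, 21.3, 20.3 and 20.1 TPM at ZT0, at 17.8, 16.9, 22.3 and 16.6 TPM at ZT4 and at 7.98, 8.80, 5.54 and 9.16 TPM at ZT8. They were at 3.37, 3.94, 2.69 and 5.07 TPM at ZT12, at 5.63, 4.91, 4.19 and 3.98 TPM at ZT16, at 8.08, 6.88, 9.75 and 9.85 TPM at ZT20 and at 17.3, 18.5, 14.9 and 18.2 TPM at ZT24. The DRF libraries had left the high range by ZT8, and their lowest time was ZT12 rather than ZT16. The regimens overlapped at ZT0, ZT4, ZT16, ZT20 and ZT24 and did not overlap at ZT8 and ZT12, where each DRF library was below each NRF library.

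A 24-h cosine fitted to Col5a3 peaked at ZT3.78 ± 0.231 h (SE) under NRF and at ZT1.70 ± 0.210 h under DRF. The fitted peak was therefore 2.08 h earlier under DRF (shift -2.08 ± 0.312 h, 95% confidence interval from -2.69 to -1.47 h), and the rhythm differed between regimens (adjusted p = 9.7e-06). The amplitude, which is the height of the cosine above its middle, was 1.09 ± 0.069 under NRF and 1.10 ± 0.056 under DRF on the log2 scale. At single times, Col5a3 was lower under DRF at ZT8 (log2 difference -0.91 ± 0.17, adjusted p = 0.0051) and at ZT12 (-0.73 ± 0.17, adjusted p = 0.0050). At ZT0, ZT20 and ZT24 its DRF mean lay above the NRF mean, with no call at these times. Averaged over the day it was lower under DRF by 0.28 ± 0.063 on the log2 scale (adjusted p = 0.0012).

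**Figure D1:**
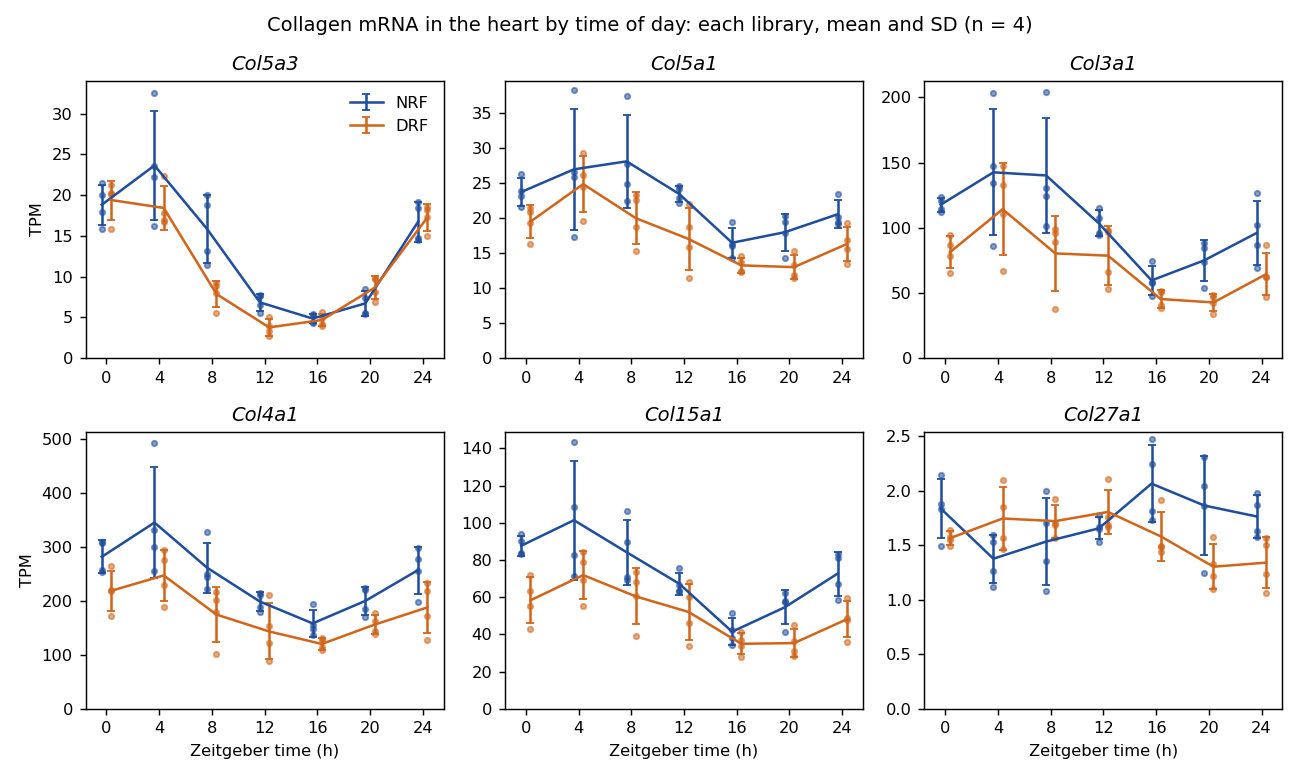
TPM (vertical axis, linear) of 6 collagen genes against zeitgeber time in hours (horizontal axis) under NRF (blue) and DRF (orange). Small points are single libraries and lines join group means with SD (n = 4); Col5a3 ranges from 2.69 to 32.5 TPM, the DRF curves of Col5a1, Col3a1, Col4a1 and Col15a1 run below the NRF curves at all 7 times, and Col27a1 crosses over.

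The other tested chains had lower amplitudes. Col5a3 was singled out with its amplitude already known, so the following is a description without a test. The highest amplitude among the 26 other tested members was 0.60 on the log2 scale under both regimens, in Col3a1, a main fibre chain. The median amplitude over the 27 tested members was 0.24 under NRF and 0.27 under DRF, and over all 13893 genes it was 0.10 under both. Among all 13893 genes the amplitude of Col5a3 ranked 26 under NRF and 9 under DRF. Its group mean was 4.87 times higher at its highest than at its lowest time under NRF and 5.14 times under DRF. The same ratio was 1.71 and 1.91 for Col5a1, and 1.35 and 1.54 for Col5a2.

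Within single libraries, the ratio of Col5a3 to its partner chains changed with the time of day. The ratio of Col5a3 to Col5a1 TPM under NRF was 0.79 ± 0.06 at ZT0 (SD, n = 4), 0.89 ± 0.04 at ZT4 and 0.30 ± 0.02 at ZT16. Under DRF it was 1.00 ± 0.04 at ZT0, 0.75 ± 0.12 at ZT4 and 0.22 ± 0.01 at ZT12. Col5a3 exceeded Col5a1 in 5 of 56 libraries and Col5a2 in 19 of 56. Col5a3 was thus close to the level of its partners around lights on and well below them at the end of the light phase.

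**Figure D2:**
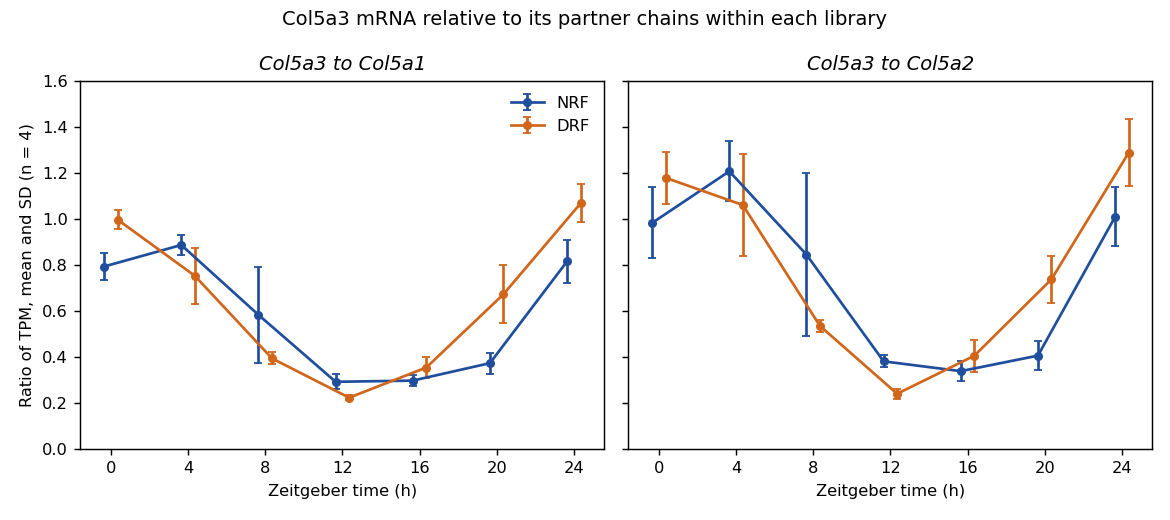
Ratio of Col5a3 TPM to Col5a1 TPM (left) and to Col5a2 TPM (right) against zeitgeber time in hours, computed in each library. Points and bars are means and SD of 4 libraries; at ZT20 the ratio to Col5a1 is 0.67 ± 0.13 under DRF and 0.37 ± 0.05 under NRF, and it is lowest at ZT12 under DRF (0.22 ± 0.01).

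The genes whose log2 levels most resembled Col5a3 over the 14 group means were Mmp14 (Pearson r = 0.977), Fbn1 (0.969), Fabp7 (0.964), Plpp1 (0.947) and Cx3cl1 (0.944). These correlations are descriptions over 14 groups that share a time of day. Mmp14 encodes a membrane-bound collagenase, and Fbn1 encodes fibrillin, the core of microfibrils. Mmp14 peaked at ZT3.67 under NRF and ZT1.38 under DRF (shift -2.29 ± 0.493 h), and Fbn1 at ZT4.29 and ZT2.41 (-1.89 ± 0.485 h). No test is given for these genes, since they were chosen for their likeness. The closest collagen genes were Col4a2 (r = 0.860) and Col4a1 (0.852).

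In the main fit most tested collagen genes were rhythmic, but under NRF this did not hold without replicate 2, as given at the end. Under NRF, 21 of 27 were called rhythmic, against 37.2% of all genes tested. Under DRF, 17 of 27 were called, against 32.2% of all genes. Of these, 16 were rhythmic under both regimens (17.5% of all genes), 5 were called under NRF alone (Col4a3, Col4a4, Col11a2, Col16a1 and Col28a1) and 1 under DRF alone (Col5a2). Several of these calls were close to the threshold. Leaving out a single library ended the NRF call of Col1a2 (adjusted p = 0.049) in 19 of 56 cases and that of Col16a1 (adjusted p = 0.040) in 11, and of the 19 other alternatives 10 and 9 did so. It also ended the NRF calls of Col18a1 (3 cases) and Col14a1 (1), and the DRF calls of Col1a2 (3) and Col5a2 (1). Being called under 1 regimen does not show that the rhythms differ, and of the 6 genes called under a single regimen Col28a1 alone passed the test of the difference. The transmembrane chains Col13a1 and Col23a1, the short-chain network genes Col8a1 and Col8a2, and Col4a6 were called under neither regimen.

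The major chains kept the time of their peak when feeding was inverted. Col1a1 peaked at ZT6.22 ± 0.526 h under NRF and ZT5.26 ± 0.593 h under DRF. Col3a1 peaked at ZT5.54 ± 0.507 h and ZT5.64 ± 0.647 h, and Col4a1 at ZT3.95 ± 0.448 h and ZT3.06 ± 0.727 h. The basement membrane zone chain Col15a1 peaked at ZT4.67 ± 0.451 h and ZT5.48 ± 0.575 h. For these 4 genes the interval of the shift reached from -2.52 to 0.58 h, from -1.51 to 1.71 h, from -2.55 to 0.79 h and from -0.62 to 2.24 h. A shift as large as 8 h lay outside each of these intervals.

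Over the 16 genes rhythmic under both regimens, the median absolute shift was 0.848 h, and over all 2434 genes rhythmic under both it was 3.81 h. A shift of 4 h or less was seen in 14 of the 16, against 52.2% of the 2434 genes. Of the 16, 11 peaked earlier and 5 later under DRF. Col6a1, Col6a2 and Col6a3, the chains of the common collagen VI, had shifts of -0.82 ± 0.875, 0.05 ± 0.732 and 0.26 ± 0.839 h.

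**Figure D3:**
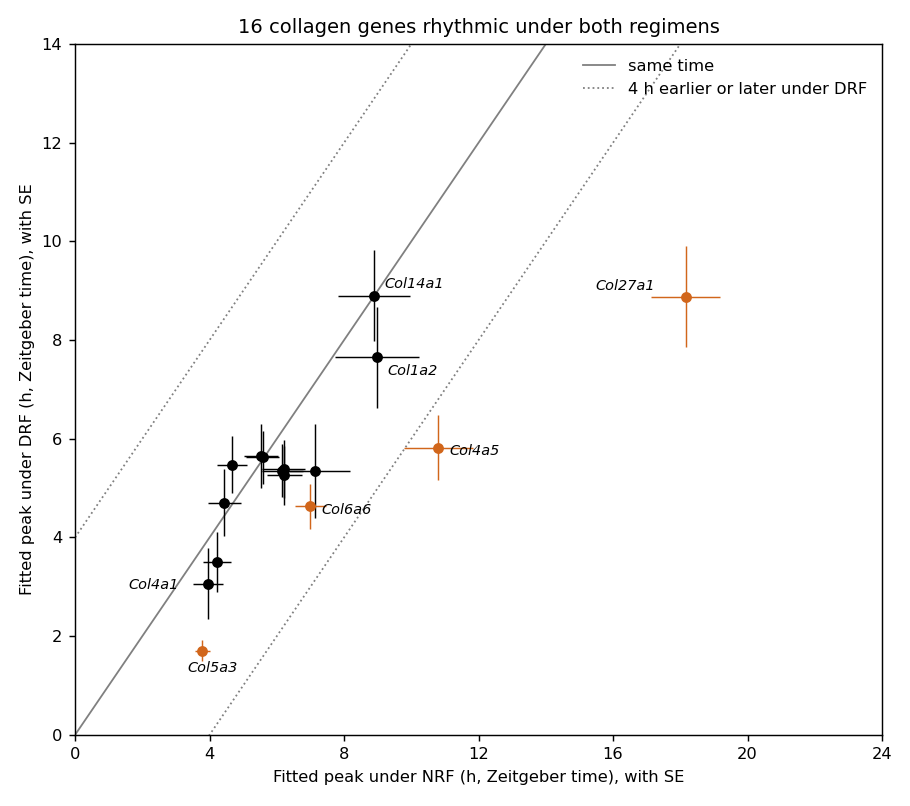
Fitted peak time under DRF against that under NRF, both in hours of zeitgeber time with SE, for the 16 collagen genes rhythmic under both regimens. Orange marks genes with a different rhythm (adjusted p under 0.05), the solid line equal times and the dotted lines a shift of 4 h; 14 genes lie between the dotted lines, and Col4a5 (-4.98 h) and Col27a1 (-9.28 h) lie beyond them.

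The rhythm differed between regimens in 5 of 27 tested collagen genes, against 27.5% of all genes. Beside Col5a3, these were Col27a1 (adjusted p = 0.0013), Col4a5 (0.0051), Col6a6 (0.012) and Col28a1 (0.014). Without an adjustment 6 of 27 had a p under 0.05. No test was made of this share against that of all genes. The calls of a different rhythm of Col5a3 and Col27a1 were kept under each alternative run. Those of Col4a5 and Col28a1 were lost without ZT16, that of Col28a1 also without ZT0 or ZT12, that of Col6a6 without ZT12, ZT24 or replicate 3, and all 3 without replicate 2.

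Col27a1 encodes a fibrillar chain of low level in the heart. Its group mean under NRF was highest at ZT16, where the replicates were at 1.74, 1.81, 2.47 and 2.24 TPM, and lowest at ZT4, where they were at 1.12, 1.53, 1.26 and 1.59 TPM. Under DRF it was highest at ZT12, with 1.76, 1.67, 1.69 and 2.11 TPM, and lowest at ZT20, with 1.32, 1.58, 1.10 and 1.21 TPM. The fitted peak moved from ZT18.2 ± 1.02 h to ZT8.88 ± 1.03 h, a shift of -9.28 ± 1.45 h, with amplitudes of 0.16 ± 0.047 and 0.13 ± 0.035 on the log2 scale. The gene had a mean of 367 reads per library, so the swing rests on small differences in level. The call that it was rhythmic under NRF (adjusted p = 0.030) was lost in 7 of 56 cases when 1 library was left out and under 7 of 19 other alternatives, and the call under DRF (adjusted p = 0.017) in 0 of 56 and under 5 of 19.

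Col4a5 and Col4a6 encode basement membrane chains. Col4a5 replicates at ZT16 were at 13.5, 10.9, 12.7 and 9.74 TPM under DRF and at 13.97, 16.3, 16.4 and 14.2 TPM under NRF. The groups did not overlap there, and the log2 difference was -0.36 ± 0.097 (adjusted p = 0.020). The fitted peak of Col4a5 moved from ZT10.8 ± 1.03 h under NRF to ZT5.82 ± 0.662 h under DRF (shift -4.98 ± 1.23 h). Col4a6, at a mean of 1.47 TPM, was called neither for rhythm nor for mean level, but was called higher under DRF with the fibroblast marker term described with the cell markers.

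Col6a6 encodes a further collagen VI chain. It peaked at ZT7.00 ± 0.453 h under NRF and at ZT4.63 ± 0.456 h under DRF, a shift of -2.37 ± 0.643 h. At ZT12 its replicates were at 3.12, 2.98, 3.69 and 2.99 TPM under NRF and at 2.27, 2.34, 1.63 and 2.21 TPM under DRF. The groups did not overlap at that time, but the difference was not called (adjusted p = 0.057). Col28a1, of a class of its own, was rhythmic under NRF (peak ZT15.6 ± 0.579 h, amplitude 0.35 ± 0.055) and had an amplitude of 0.13 ± 0.066 under DRF (adjusted p = 0.29). At ZT0 the replicates of Col28a1 were at 1.42, 0.976, 1.04 and 1.03 TPM under NRF and at 1.43, 1.79, 2.41 and 1.597 TPM under DRF, without overlap and with no call (log2 difference 0.40 ± 0.14, adjusted p = 0.061). It averaged 113 reads per library.

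**Figure D4:**
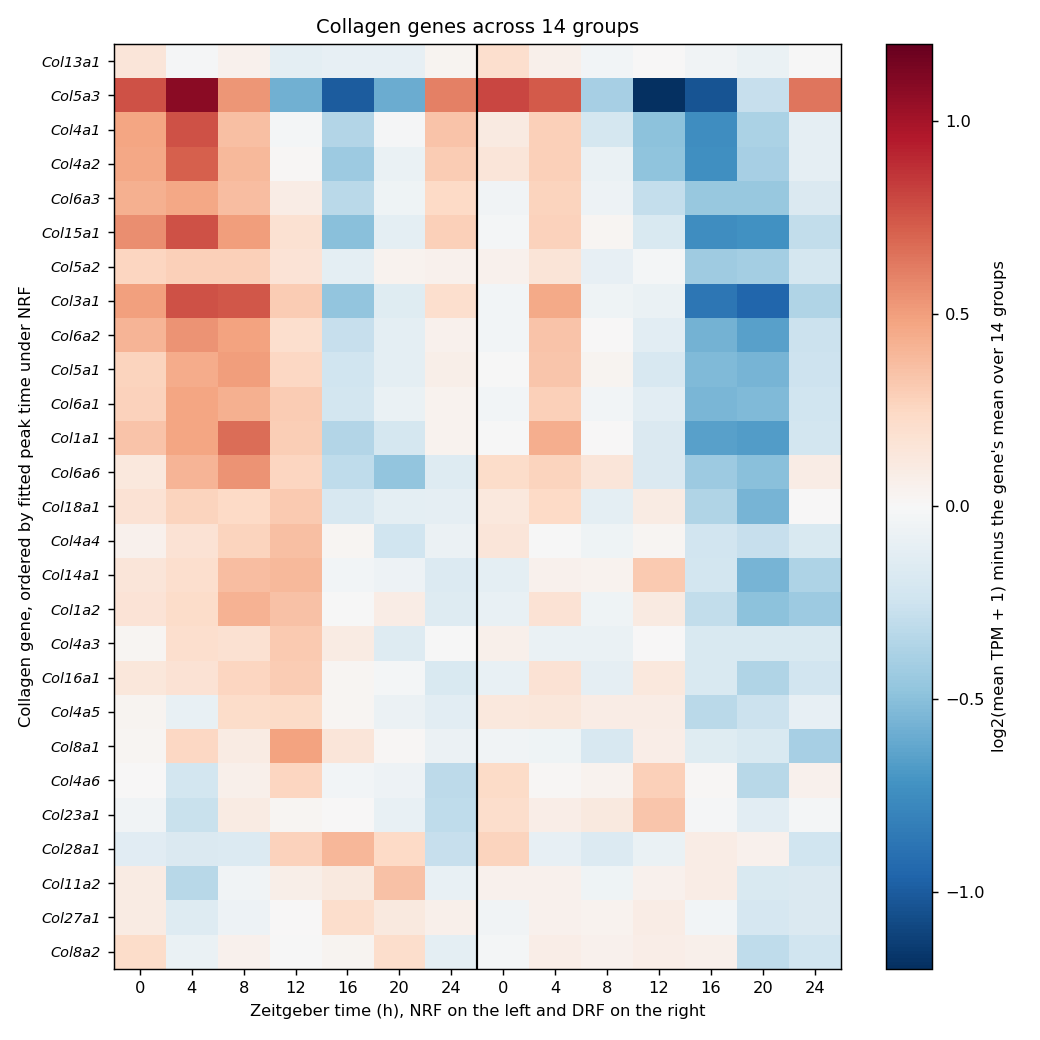
Colour gives log2(mean TPM + 1) of each of the 27 tested collagen genes minus the gene's mean over the 14 groups; columns are zeitgeber times under NRF (left of the line) and DRF (right), rows are ordered by the fitted peak under NRF. Red fills the ZT0 to ZT8 columns of most upper rows under NRF and is paler under DRF, blue in these rows is deepest at ZT16 and ZT20 under DRF, and Col5a3, with its lowest level at ZT12 under DRF, has the deepest colours.

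The mean level over the day was lower under DRF in 19 of 27 tested collagen genes, against 24.3% of all genes, and higher in 0, against 1.67% of all genes. No collagen gene was higher at an unadjusted p under 0.05 either (limma, 0 of 27). The median log2 difference was -0.24 over the 27 collagen genes and -0.05 over all 13893 genes. Of the 19, 14 were lower under DRF at each of the 7 times, as were 8.31% of all genes. In bulk tissue, fewer cells of a type and less RNA per cell cannot be told apart. The share of reads from mitochondrial genes was 20.4 ± 1.57% under NRF and 21.7 ± 1.47% under DRF (SD, n = 28 each), and its part in the collagen result was not tested.

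The fibrillar chains fell under DRF in 6 of 8 tested members, against 24.3% of all genes. Col3a1 had a lowest value of 47.9 TPM, a median of 102 TPM and a highest of 204 TPM in the 28 NRF libraries, and 33.5, 65.7 and 147 TPM in the 28 DRF libraries. It fell by 0.55 ± 0.096 on the log2 scale (adjusted p = 8.7e-05), the largest difference among the 27. Col1a1, the main chain of collagen I, had a median of 59.8 TPM under NRF and 42.4 TPM under DRF and fell by 0.39 ± 0.079 (adjusted p = 0.00043). Its partner Col1a2 fell by 0.32 ± 0.070 (adjusted p = 0.0011), Col5a1 by 0.35 ± 0.062 (adjusted p = 0.00012) and Col5a2 by 0.28 ± 0.061 (adjusted p = 0.0010). Col11a2 and Col27a1 were not called, with intervals from -0.17 to 0.08 and from -0.14 to 0.02.

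The basement membrane chains Col4a1 and Col4a2 fell with them. Col4a1 ranged from 137 to 492 TPM with a median of 233 TPM under NRF, and from 87.6 to 294 TPM with a median of 175 TPM under DRF. Its log2 difference was -0.47 ± 0.076 (adjusted p = 3.7e-05), and that of Col4a2 was -0.41 ± 0.070 (adjusted p = 6.3e-05). Col4a3 and Col4a4, which form a network of a more restricted distribution, fell by 0.21 ± 0.054 (adjusted p = 0.0046) and 0.19 ± 0.061 (adjusted p = 0.023). The call of Col4a3 was lost without replicate 3 or ZT16. Col4a5 was not called for its mean level (-0.09 ± 0.037, adjusted p = 0.066).

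All 4 tested collagen VI chains were called lower, Col6a6 only just. The smallest adjusted p among the collagen genes was that of Col6a2 (-0.37 ± 0.059, adjusted p = 2.5e-05). Col6a1 fell by 0.36 ± 0.060 (adjusted p = 4.6e-05), Col6a3 by 0.34 ± 0.058 (adjusted p = 5.4e-05) and Col6a6 by 0.15 ± 0.055 (adjusted p = 0.044). Of the multiplexins, whose C-terminal fragments are known as inhibitors of vessel growth, Col15a1 fell by 0.47 ± 0.076 (adjusted p = 3.2e-05) and Col18a1 by 0.18 ± 0.070 (adjusted p = 0.044). The calls of Col6a6 and Col18a1 were marginal. Leaving out a single library ended that of Col6a6 in 23 of 56 cases and that of Col18a1 in 27 of 56, and of the 19 other alternatives 13 and 14 did so. That of Col4a4 was kept without any single library and lost in 12 of the 19. Scaling by the median of ratios ended all 3.

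The fibre-associated chains Col14a1 and Col16a1, which sit on the surface of fibres, also fell. Col14a1 fell by 0.24 ± 0.072 (adjusted p = 0.013) and Col16a1 by 0.21 ± 0.059 (adjusted p = 0.0093). Both calls were lost without replicate 3, ZT8 or ZT20, and that of Col14a1 also without replicate 4. Of the short-chain network genes, Col8a1 fell by 0.28 ± 0.064 (adjusted p = 0.0014) and Col8a2 was not called (interval from -0.22 to 0.09). The transmembrane chains Col13a1 and Col23a1 had positive differences of 0.03 ± 0.040 and 0.15 ± 0.077 that were not called (adjusted p = 0.65 and 0.14).

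**Figure D5:**
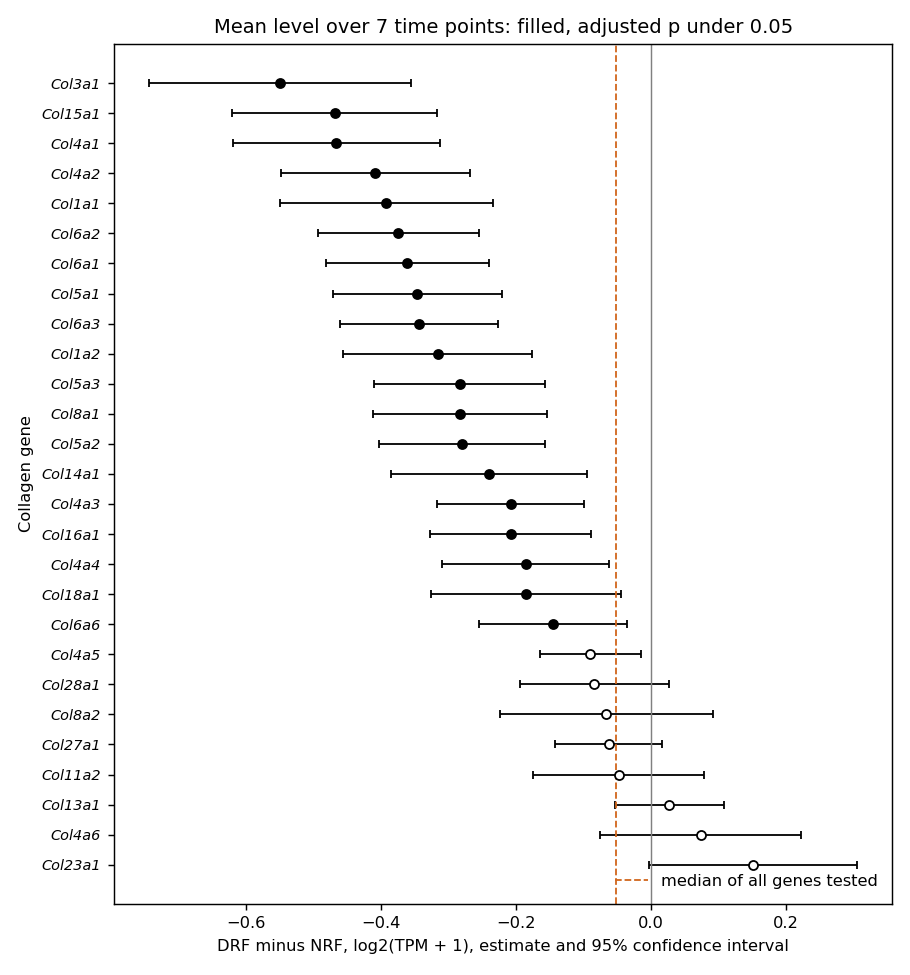
Fitted difference in mean level over the day, DRF minus NRF in log2(TPM + 1), with 95% confidence interval, for the 27 tested collagen genes. Filled circles mark an adjusted p under 0.05 and the dashed line the median of all genes tested (-0.05); 19 circles are filled, all left of 0, from Col3a1 (-0.55) to Col6a6 (-0.15).

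Single times were compared with 4 libraries against 4, and 13 of the 189 pairs of gene and time were called, all lower under DRF. At ZT20 7 of 27 genes were called lower under DRF, as were 11.5% of all genes, at ZT0 3 of 27, against 8.42% lower, and 1 each at ZT8, ZT12 and ZT16, against 0.259%, 6.37% and 6.23% lower. At ZT4 and ZT24 limma called 0 collagen genes in either direction, whereas 0.115% and 4.45% of all genes were called lower. An unadjusted p under 0.05 was found in 6 collagen genes at ZT4 and 7 at ZT24. Of the 6, Col4a5 (0.23) and Col11a2 (0.38) were higher under DRF and the others lower. The 7 at ZT24 were all lower. The difference was negative in 152 of the 189 pairs. All DRF libraries lay below all NRF libraries in 7 of 27 genes at ZT0 (10.3% of all genes), in 7 at ZT12 (10.9%) and in 7 at ZT20 (15.4%). The same held for 5 genes at ZT8 (5.97% of all genes), 5 at ZT16 (17.8%), 1 at ZT24 (6.49%) and 0 at ZT4 (1.06%). In the other direction, 1 collagen gene, Col28a1 at ZT0, had all DRF libraries above all NRF libraries (5.16% of all genes at that time). The shares at ZT0, ZT8, ZT12 and ZT20 were above those of all genes by this count, and the share at ZT16 was close to it. The number of calls at single times was the least stable count, ranging from 3 to 24 as each replicate number was left out.

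At ZT20 the called genes were Col3a1, Col1a2, Col5a2, Col6a2, Col11a2, Col15a1 and Col27a1. Col3a1 replicates were at 73.8, 88.4, 53.5 and 84.1 TPM under NRF and at 42.2, 48.1, 33.5 and 46.9 TPM under DRF, without overlap (log2 difference -0.79 ± 0.25, adjusted p = 0.028). Col6a2 was at 37.6, 36.9, 29.2 and 35.5 TPM under NRF and at 23.98, 23.8, 20.8 and 26.6 TPM under DRF (-0.53 ± 0.15, adjusted p = 0.016). Col1a2 was at 40.3, 43.6, 33.2 and 41.0 TPM under NRF and at 22.9, 27.4, 23.6 and 30.7 TPM under DRF (-0.58 ± 0.18, adjusted p = 0.024). In each of these 3 genes the lowest NRF library stood above the highest DRF library. At ZT0 the called genes were Col6a3, Col6a2 and Col15a1, and Col15a1 was at 90.0, 83.0, 94.2 and 83.5 TPM under NRF and at 42.8, 63.4, 71.7 and 55.5 TPM under DRF (-0.60 ± 0.20, adjusted p = 0.043).

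ZT24 repeats ZT0 one day later. Of the 27 genes, limma called 0 between ZT24 and ZT0 under NRF and 0 under DRF, with 2 and 3 at an unadjusted p under 0.05. Over all genes 8 and 59 were called. The median collagen difference, ZT24 minus ZT0, was -0.20 under NRF and -0.22 under DRF. The median collagen difference between regimens, at -0.24, was of similar size. The cause of the difference between ZT24 and ZT0 was not tested.

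Of 3 pairs of chains encoded head to head, Col4a1 and Col4a2 and also Col4a3 and Col4a4 varied together between replicates more closely than most collagen pairs, and Col4a5 and Col4a6 did not. Col4a1 and Col4a2 lie head to head on chromosome 8, where Col4a1 (11198423 to 11312826, minus strand) and Col4a2 (11312805 to 11449287, plus strand) share 22 bases. Once each group's mean was removed, their log2 levels correlated over 56 libraries with r = 0.980. Col4a4 and Col4a3 lie head to head on chromosome 1, 71 bases apart, with r = 0.882, and Col4a6 and Col4a5 on the X chromosome, 1308 bases apart, with r = 0.447. Chains of 1 molecule encoded on different chromosomes were also close, with r = 0.971 for Col1a1 and Col1a2, and the median over all 351 pairs was 0.576. Col5a3 had a median r of 0.529 with the other members, and 0.727 with Col5a1. These are descriptions over libraries that share depth and composition.

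Genes that fold, process, degrade or bind collagen were taken from lists drawn up with earlier results of these data known. Among 20 tested genes of folding and modification, 13 were lower and 0 higher under DRF (limma, also 0 at an unadjusted p under 0.05), and 8 had a different rhythm. Over all genes 24.3% were lower, 1.67% higher and 27.5% had a different rhythm, and no test was made of the shares of these lists against them. Serpinh1 encodes HSP47, the chaperone of procollagen. Its group mean under NRF was highest at ZT20 (451 ± 43.0 TPM, SD, n = 4) and lowest at ZT12 (231 ± 10.8), whereas under DRF it was highest at ZT4 (401 ± 104) and lowest at ZT24 (198 ± 26.7). Its fitted peak was at ZT21.3 under NRF and ZT8.74 under DRF, 11.4 h apart (± 1.15 h SE), and the rhythm differed (adjusted p = 1e-05). The shifts of Col1a1, Col3a1 and Col4a1 were -0.97 ± 0.793, 0.10 ± 0.822 and -0.88 ± 0.854 h. Its mean level fell by 0.32 ± 0.075 (adjusted p = 0.0019). P4ha2, a subunit of the prolyl hydroxylase that stabilises the triple helix, moved its peak by -6.70 ± 0.911 h.

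Of 11 tested genes of processing and cross-linking, 6 were lower (24.3% of all genes), 0 higher (1.67%) and 0 had a different rhythm (27.5%) (limma; 0 higher and 2 with a different rhythm at an unadjusted p under 0.05). Loxl2, a cross-linking oxidase, fell by 0.50 ± 0.069 and kept its peak (ZT6.18 under NRF and ZT5.14 under DRF). Loxl1 fell by 0.21 ± 0.056. Of 13 tested degradation genes, 7 were lower and 2 higher, against the same 24.3% and 1.67% of all genes. The gelatinase Mmp2 fell by 0.34 ± 0.058 and the receptor for collagen uptake Mrc2 by 0.25 ± 0.046, whereas Timp4, an inhibitor of such enzymes, was higher by 0.40 ± 0.10. Of 6 tested collagen receptors, 5 were lower (24.3% of all genes) and 0 higher at either p, and the median of the 6 was -0.16. Among the lower ones were Itgb1 (-0.14 ± 0.027) and Ddr2 (-0.17 ± 0.042).

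Of 16 tested genes of TGF-beta signalling, the main inducer of collagen synthesis in fibroblasts, 5 were lower and 0 higher at either p, with a median of -0.08, a share near the 24.3% of all genes that were lower. Tgfb1 itself fell by 0.23 ± 0.049 (adjusted p = 0.00076). Of 10 tested proteoglycans and other matrix proteins, 3 were lower, also near that share, namely Sparc, a collagen-binding matrix protein (-0.49 ± 0.077), Postn (-0.30 ± 0.086) and Fn1 (-0.23 ± 0.074).

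Markers of the cells that make collagen were measured in the same libraries. Of 5 fibroblast markers, Pdgfra (-0.09 ± 0.029) and Tcf21 (-0.17 ± 0.056) were lower under DRF, as were 24.3% of all genes. Dpt (-0.16 ± 0.065, adjusted p = 0.061) and Lum (-0.14 ± 0.058, adjusted p = 0.067) were not called and Dcn was at 0.01 ± 0.040. The median of the 5 was -0.14, and 4 were lower at an unadjusted p under 0.05. Their summed level ranged from 671 to 1109 TPM under NRF and from 611 to 1075 TPM under DRF. With the mean of the 5 fibroblast markers as an added term, chosen after the data were seen, the median collagen difference moved from -0.24 to -0.13. Dcn and Lum also stand in the list of proteoglycans and other matrix proteins, so this term holds matrix genes too. Whether it follows the number of fibroblasts was not tested. With this term 13 collagen genes were lower, from Col4a1 (-0.38) and Col3a1 (-0.37) to Col5a2 and Col1a2 (both -0.16), and Col4a6 (0.21) and Col23a1 (0.28) were called higher. The calls of Col4a3, Col4a4, Col6a6, Col14a1, Col16a1 and Col18a1 were lost with it. The 24.3% of all genes belongs to the main fit, and the share with this term is not given here. All 5 endothelial markers were lower (median -0.15, against 24.3% of all genes lower), with a summed level from 476 to 816 TPM under NRF and from 428 to 702 TPM under DRF. Of 5 markers each, 3 of smooth muscle and pericytes (sum 626 to 1019 TPM under NRF, 555 to 795 under DRF) and 3 of macrophages (196 to 411 and 194 to 390) were lower, against the same 24.3%. The part of the endothelial, mural and macrophage markers in the collagen result was not tested.

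The cardiomyocyte marker Tnnt2 was higher by 0.10 ± 0.032 and Actc1 lower by 0.18 ± 0.046, and the other 3 of the 5 were not called. Atrial genes varied widely between libraries, with Myl7 from 4.11 to 1606 TPM (median 206) under NRF and from 3.81 to 1890 TPM (median 669) under DRF, and limma called 0 of 4 atrial markers, although all 4 had an unadjusted p under 0.05 with higher levels under DRF (median difference 1.11). With Myl7 as an added term, chosen after the data were seen, 19 collagen genes were lower under DRF. The share of all genes lower with that term is not given here. Of 15 tested markers of mesothelium, fat, Schwann cells, skeletal muscle, cartilage, blood and lymphocytes, limma called 0 for mean level, and 1 had an unadjusted p under 0.05.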

How the data were processed

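The authors deposited 1 table of 22864 genes in 56 heart libraries, named TPM. Their processing notes name HISAT2 2.0.5, featureCounts 1.5.0-p3 and mm10 (GRCm38); the annotation and the use of strand are not given in the sources used here, and the kit marks no strand. The deposited values were not linear TPM: each equalled a library constant multiplied by log2(1 + scaled reads) and divided by exon length, so their unit is other than its name. With GENCODE M21 exon lengths this was inverted to whole reads, and 99.9996% of 1272995 tested values came out within 0.1 of a whole read. For 809 genes, Col11a2 and Col17a1 among them, the length was searched, and 25 genes were left out. Col4a3 shares 5.65% of its exon bases with a gene on the other strand, and no tested collagen gene shares more.

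Linear TPM were recomputed, and limma 3.58.1 (R 4.3.3) was fitted to log2(TPM + 1) with an intensity trend. Rhythm was an F test of a 24-h cosine and sine in 28 libraries of each regimen, and its difference an interaction test in all 56. Mean level and single times came from the 14 group means. Scripts were tested on simulated data. Groups came from the labels. Every collagen gene could be named, and genes of the other lists were named among the 6 with the smallest adjusted p for rhythm difference or mean level; all markers of the main cell types could be named. The collagen genes, the lists and the singling out of Col5a3 were chosen with earlier results of these data known. Alternatives were the pseudocount, the filter, the scaling, the deposited values, the threshold, a block for replicate number and leaving out libraries, replicates and times. No library pair was identical. Reads carry no molecular identifiers, so their number limits counting error only.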

Additional observations from a re-analysis of the deposited data

Results flagged for a closer look

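In the groups of 4 libraries of Col5a3, Col3a1, Col1a1, Col4a1 and Col15a1, 70 groups in all, 1 library stood farther from the others than Dixon's 95% critical value for 4 samples allows: Col3a1 in replicate 3 of DRF at ZT8, at 37.9 TPM, beside 88.7, 95.8 and 98.9 TPM in the other replicates. Chance places about 1 in 20 groups beyond this value.

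The effect of the time of day differed between regimens, by the interaction test, in 5 collagen genes. The fitted shift of the peak, DRF minus NRF, was -2.08 h for Col5a3, -2.37 h for Col6a6, -4.98 h for Col4a5, -9.28 h for Col27a1 and 3.62 h for Col28a1, which was not called rhythmic under DRF.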

How the results depend on the processing

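The main counts were 21 collagen genes rhythmic under NRF, 17 under DRF, 5 with a different rhythm, 19 with a lower mean level and 13 pairs of gene and time. No called mean difference of the 27 genes changed sign under any alternative run, and with the median of ratios or the deposited values 16 genes were lower and 0 higher. With the fibroblast markers as an added term 13 were lower and 2 higher. Shares of all genes are given for the main fit alone, so counts of the alternative runs have no such share beside them. For Col5a3, the shift stayed between 1.92 and 2.28 h and its difference in rhythm had adjusted p values from 6.2e-07 to 0.00096 over all alternatives. Leaving out each replicate number gave 12 to 23 genes rhythmic under NRF, 12 to 15 under DRF, 2 to 5 with a different rhythm, 13 to 18 with a different mean level and 3 to 24 pairs of gene and time. Without replicate 2, 12 genes were rhythmic under NRF and 2 had a different rhythm. Leaving out 1 library at a time gave 17 to 23 genes rhythmic under NRF, 16 to 18 under DRF, 5 to 6 with a different rhythm, 17 to 21 with a different mean level and 7 to 20 pairs of gene and time, with 20 without DRF at ZT12 replicate 4, 7 without DRF at ZT20 replicate 1 or replicate 3 or NRF at ZT20 replicate 1, and 8 without NRF at ZT20 replicate 2. Without a filter on low values, which tests all 40 genes, 22 were rhythmic under NRF, 17 under DRF, 7 had a different rhythm, 17 a different mean level, and 9 pairs of gene and time were called. Different rhythms numbered 3 without ZT12 and 3 at an adjusted p under 0.01. The pairs of gene and time numbered 22 with the median of ratios, 23 without both libraries of the highest collagen sum (chosen after the data were seen) and 2 at an adjusted p under 0.01. The labels give replicate numbers no shared origin, so the numbers were not taken as pairs. Deviations of libraries of the same number correlated with a mean r of 0.017 (lowest pair -0.40). Those of different numbers had a mean r of -0.0056 (lowest pair -0.52). As a hint from the data, 21 of 56 libraries correlated best with their own number. The count expected without pairing was not worked out. With a block for replicate number the counts were 21, 17, 5, 19 and 14. The cause of these changes was not tested.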
